A study of Mus musculus with 12 samples.

Results

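The transcriptional response of adult mouse cortical endothelial cells (ECs) to MS-275 was measured by mRNA sequencing, as 4 libraries of MS-275-treated ECs against 3 libraries of adult control ECs. Genes entered the comparison where 2 or more of these 7 libraries had a normalized count of 10 or higher, which held for 13809 of the 21611 genes of the deposited table. The 7 libraries are part of a set of 12 that also holds 2 libraries of adult ECs given Wnt3a and 3 of ECs from E13.5 embryos, and the study asks whether deacetylation holds down genes of the blood-brain barrier (BBB) and of Wnt signaling in adult brain vessels. MS-275 ECs, control ECs and Wnt3a ECs were all wild type, C57Bl6/J, from male adults of 2 to 3 months per the study's methods, and all were primary cortical cultures used at passage 2, whose endothelial purity the study checked by CD31 and isolectin B4 staining. MS-275 was given at 10 uM for 48 h and Wnt3a at 200 nM, as the labels spell the doses, and no label names an agent or vehicle for the control libraries. The methods describe a sample as the pooled cells of the animals of a litter, but no label ties a library to a litter, so p-values here measure the spread between these libraries, which may be technical.

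Histone deacetylases (HDACs) remove acetyl groups from lysines of histone tails and of other proteins, and they act at genes as subunits of corepressor complexes such as Sin3, NuRD, CoREST and NCoR. MS-275 (entinostat) is a benzamide that the study uses as an inhibitor of class I HDACs. The study counts HDAC1, HDAC2, HDAC3 and HDAC8 in this class, and inhibition of each member was not measured here. Brain ECs form the BBB through tight junctions, specific transporters and low transcytosis, and canonical Wnt signaling through β-catenin drives these properties while the brain vasculature forms.

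Values are normalized counts (reads divided by a library size factor), given for MS-275 libraries in the order of replicates 1 to 4 and for control libraries in the order of replicates 1 to 3. Fold changes are differences of mean log2(normalized count + 1), MS-275 minus control, and p-values are from limma with Benjamini-Hochberg adjustment over all 13809 genes, called at 0.05.

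Reads on genes ranged over 20804279 to 33149580 in MS-275 libraries and 26998907 to 31692256 in control libraries, and 15614 to 16720 genes had at least 1 read in MS-275 libraries, against 13948 to 14556 in control libraries. The 10 most abundant genes took 5.87% to 8.01% of the counts in MS-275 libraries and 4.00% to 4.30% in control libraries. Libraries within a group were not equally far apart. MS-275 replicates 1 and 3 and MS-275 replicates 2 and 4 formed close pairs, with a chi-square of 27.5 and 6.65 per gene, while the other MS-275 pairs ranged over 144 to 204, and control replicates 1 and 2 were close as well, at 10.3 against 236 and 266. The labels number the MS-275 libraries as biological replicates 1 to 4, and a figure legend of the study also counts 4. The study's methods instead give 2 replicates for this condition. Which cultures the libraries share cannot be told from these sources. Chi-square here is the squared difference between the reads of a pair over its counting variance, near 1 per gene for counting noise alone, so no close pair was within counting noise and all libraries entered the fit. Counts and calls are also given with each close pair averaged to 1 value, which leaves 2 values a group.

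MS-275 changed 57.6% of the genes compared, in both directions. After MS-275, 4433 genes were higher (32.1%) and 3526 were lower (25.5%), while 5850 did not pass the test. With close pairs averaged the counts were 2159 higher (15.6%) and 1799 lower (13%), and each of these genes was also called, in the same direction, with the libraries kept apart. Over all genes the log2 fold change had a median of 0.15. All MS-275 libraries lay above all control libraries for 31.9% of genes and below them for 25.9%. Of the genes compared, 1226 had no control library at 10 and could pass the filter only through MS-275 libraries, and 139 only through control libraries. Called changes of more than 4-fold counted 1736 genes up and 1061 down, and changes of more than 16-fold 579 up and 209 down.

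**Figure D1:**
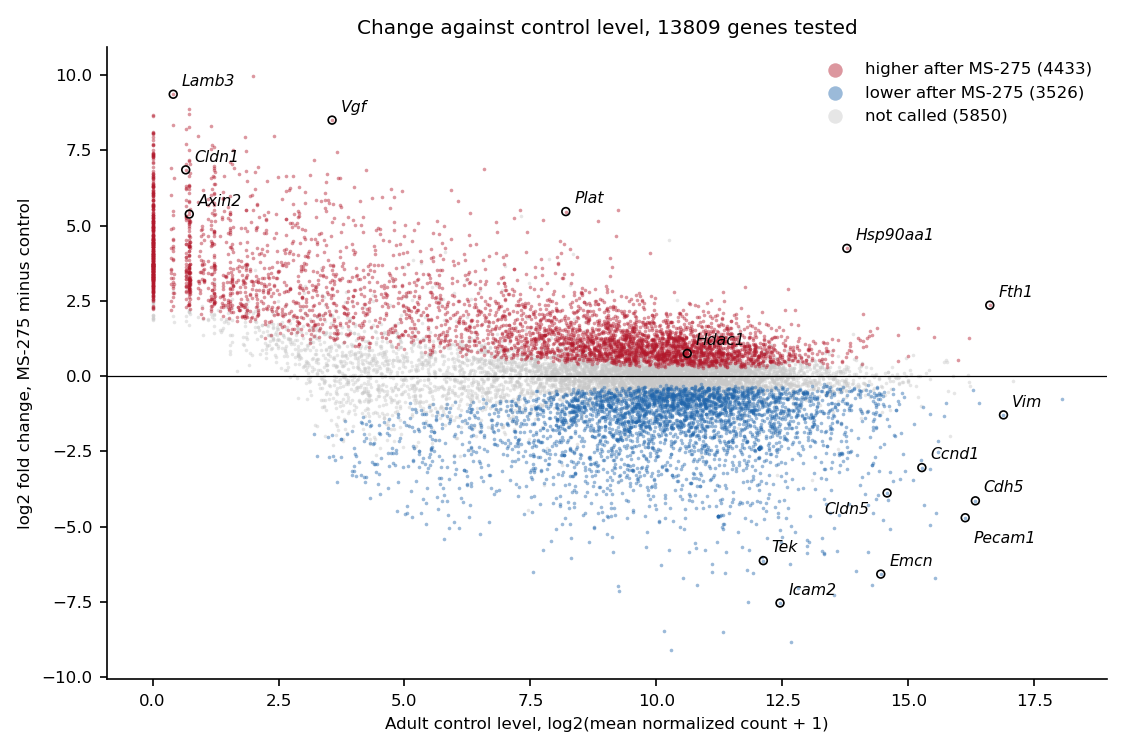
Log2 fold change (MS-275 minus control, vertical axis) against the mean level in control ECs (log2 of normalized count + 1, horizontal axis), 1 point a gene, for 13809 genes. Red points are the 4433 genes called higher, blue points the 3526 called lower, and rings mark named genes. Lamb3, Cldn1 and Axin2 lie high at the left, near 0 in control, while Cdh5, Pecam1, Emcn and Icam2 lie low at the right.

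The share of genes called in each direction differed by the level in control ECs, a level that is also part of the fold change. Of the 477 genes above a mean of 10000 in control ECs, 9.64% were called higher and 48.4% lower. Between 1000 and 10000 the shares were 23.6% higher and 33.9% lower, and between 10 and 100 they were 31.6% higher and 14.3% lower. Genes with no control read at all could enter the comparison only through MS-275 libraries, so that they had to be higher, and 394 of the 414 such genes were called. The share over the whole table carries no such filter: 6102 genes had no read in any control library, of which 2932 had a read in an MS-275 library and 656 had one in all 4. In the other direction 3494 genes had no MS-275 read, of which 324 had a control read. These counts set 4 MS-275 libraries against 3 control libraries, so a rare transcript was more easily sampled in the MS-275 group. A mean of at least 100 in MS-275 ECs beside a mean under 1 in control ECs was found for 72 genes, and the reverse for 1 gene.

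**Figure D2:**
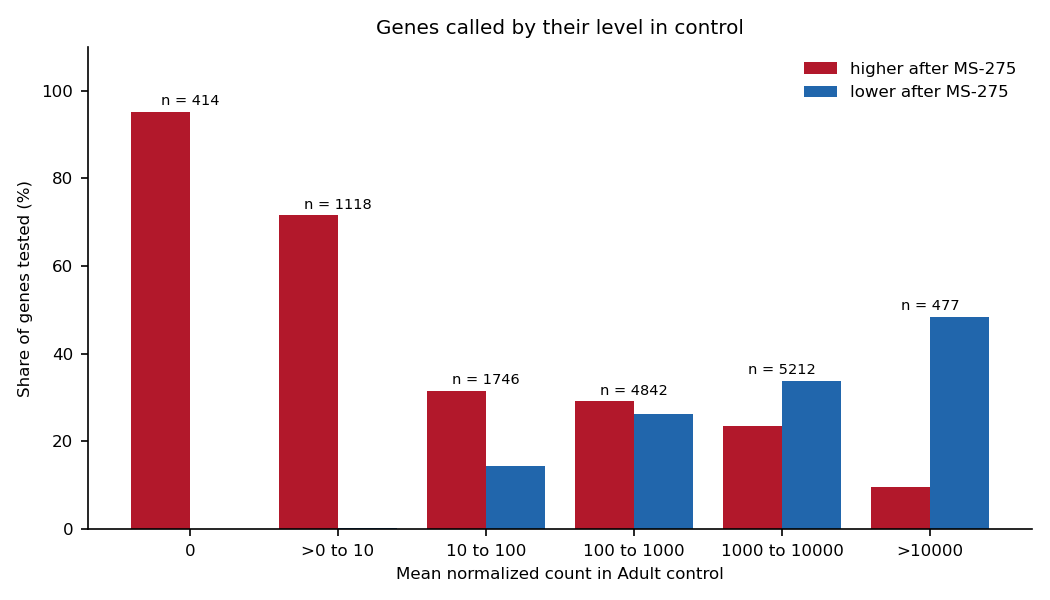
Share of genes called higher (red) and lower (blue) after MS-275, in percent of the genes compared, by mean normalized count in control ECs, with the number of genes over each pair of bars. The share called lower is 14.3% at levels of 10 to 100 and 48.4% above 10000, and the share called higher is 31.6% and 9.64% at those levels.

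The largest increases were in genes that control ECs did not express or barely expressed. The 12 largest, among genes with no overlap between the groups and a mean of at least 100 after MS-275, had log2 fold changes of 8.10 to 9.98. Cadm4, a cell adhesion molecule of the nectin-like family, had 1683, 4429, 2130.3 and 4449 normalized counts after MS-275, against 6.94, 0 and 1.97 in control (log2 fold change 9.98 ± 0.59 (SE), adjusted p = 7.5e-07). Lamb3, the laminin β3 chain of epithelial basement membranes, had 1151, 599, 1173 and 583 normalized counts after MS-275, against 0, 0 and 0.986 in control. Onecut2, a homeobox transcription factor, had 438, 818, 679.6 and 823 normalized counts after MS-275, against 0, 0 and 1.97 in control. For each of these genes the lowest MS-275 library was far above every control library. A single read of Lamb3 was counted in the 3 control libraries, so the ratio of pooled reads, 2915, has a 95% counting interval of 523 to 115170. Lamb3 lies over Hsd11b1 and G0s2 on the other strand, and the sources used here do not give whether the counting used strand, so reads from such partners cannot be told apart. The same holds for Cyfip2 over Fndc9, Gca over Kcnh7, Bex1 over Tceal7 and Nos3 over Atg9b, and Tubb3 overlaps Gm20388 on its own strand. Of the genes given with values below, Alas2, Angpt2, B2m, Bak1, Capza1, Ccl2, Ccnd1, Ciita, Ctnnb1, Cxcl10, F8, Fosl1, Hexa, Junb, Lmo2, Lyl1, Nefl, Pfkp, Plvap and Stab1 also overlap a protein-coding gene on the other strand in their annotated spans, and Bax, Hoxd3, Hoxd4 and Timp2 one on their own strand, so the same limit holds for them. Col6a1, a collagen VI chain, had 419, 844, 491 and 787 normalized counts after MS-275, against 0, 0 and 1.97 in control. Cd36, a receptor for fatty acids and thrombospondin, had 330.1, 549.7, 373 and 422 normalized counts after MS-275, against 0, 0 and 0.986 in control. Cyfip2, a subunit of the WAVE actin complex, and Coro2a, a coronin, had 652 and 425 on average in MS-275 ECs, against 1.24 and 0.578 in control ECs. The remaining members of the 12 are Arfgef3, Des, Vgf, Trpc5os and Tcp11x2. All 12 stayed called with close pairs averaged, with adjusted p of at most 0.0045.

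Of the 8 genes with no control read and the highest means after MS-275, some were high in all MS-275 libraries and others in 1 close pair. Des, the muscle intermediate filament desmin, had 299, 436, 525 and 393 normalized counts after MS-275, against 0, 0 and 0 in control, which is at least 144-fold higher when a floor of 3 reads per control library is used. Tent5c, a poly(A) polymerase, had 147, 378, 254 and 366 normalized counts after MS-275, against 0, 0 and 0 in control (at least 99.7-fold higher). All 4 MS-275 libraries were high for both genes. Other genes of this group differed sharply between the close pairs. Crct1, of the epidermal differentiation complex, had 1205, 21.9, 1231 and 22.7 normalized counts after MS-275, against 0, 0 and 0 in control, with replicates 1 and 3 high, and it was not called with close pairs averaged (adjusted p = 0.051). Parm1 had 8.53, 551, 25.9 and 558 normalized counts after MS-275, against 0, 0 and 0 in control, with replicates 2 and 4 high. Gpr165 had 9.38, 249, 11.4 and 1364 normalized counts after MS-275, against 0, 0 and 0 in control, with the same replicates high. The other genes of the 8 are Trpc5os and Tcp11x2. Gca, the EF-hand protein grancalcin, had 88.7, 577, 118 and 576 normalized counts after MS-275, against 0, 0 and 0 in control.

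The largest decreases included genes of vessels. The 12 largest, by the same rule applied to the control mean, had log2 fold changes of −9.11 to −6.93. Dipk2b had 1.71, 1.09, 3.24 and 0 normalized counts after MS-275, against 1031, 1165 and 1533 in control (log2 fold change −9.11 ± 0.87 (SE), adjusted p = 1.1e-05). Gpihbp1, which carries lipoprotein lipase across capillary ECs, had 1.71, 6.56, 0 and 2.53 normalized counts after MS-275, against 1268, 1595 and 561 in control. Ednrb, the endothelin B receptor, had 206, 139.9, 165 and 136 normalized counts after MS-275, against 19145, 20219 and 20548 in control. For each of these genes the highest MS-275 library was far below the lowest control library. Adamts5, an aggrecan-cleaving protease, had 59.7, 131, 34.1 and 114 normalized counts after MS-275, against 10373, 10059 and 14859.5 in control. Mmp14, a membrane-anchored metalloprotease, had 44.4, 5.46, 40.5 and 1.26 normalized counts after MS-275, against 2089, 2511 and 743 in control. Clca2 averaged 14.1 in MS-275 ECs and 6552 in control ECs. Chil5, a chitinase-like protein, averaged 18.8 in MS-275 ECs and 3611 in control ECs. Fbp1, a gluconeogenic phosphatase, averaged 4.5 in MS-275 ECs and 610.4 in control ECs. Tmem252, Ushbp1 and Icam2 complete this group together with Izumo1, whose gene overlaps the EC gene Rasip1 on the same strand over 1336 bases, so that reads of Rasip1 could have been assigned to it. All 12 stayed called with close pairs averaged.

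Nearly all genes that define ECs were lower after MS-275. Of 30 endothelial identity genes, all of which passed the filter, 26 were lower and 1 was higher (23 and 0 with close pairs averaged), with a median log2 fold change of −4.23 against 0.15 for all genes. Pecam1 (CD31), the junctional antigen used to identify and sort ECs (chromosome 11, 106654217 to 106750628 of mm10), had 4762, 2551, 1341 and 3352 normalized counts after MS-275, against 74703, 81545 and 58849 in control (log2 fold change −4.71 ± 0.35 (SE), adjusted p = 2.4e-06). Cdh5, the VE-cadherin of endothelial adherens junctions (chromosome 8, 104101625 to 104144511), had 10932, 2808, 3654 and 4164 normalized counts after MS-275, against 81723, 90276 and 75414 in control (log2 fold change −4.14 ± 0.40 (SE), adjusted p = 1.2e-05). MS-275 replicate 1 was the highest of its group for both genes and still stood below every control library. Emcn, an endothelial sialomucin, had 235, 292, 144 and 298 normalized counts after MS-275, against 23333, 23832 and 20142 in control. Icam2, an endothelial adhesion receptor, had 123, 13.1, 31.6 and 12.6 normalized counts after MS-275, against 6204, 6305 and 4318 in control. Tek, the angiopoietin receptor Tie2, had 116, 36.1, 90 and 30.3 normalized counts after MS-275, against 5349, 5643 and 2383 in control. All 3 genes fell by more than 16-fold, with no library of either group near the other. Nos3, endothelial nitric oxide synthase, had 2801, 984, 1126 and 1283 normalized counts after MS-275, against 48839, 51617 and 32846 in control. Ptprb, the endothelial phosphatase VE-PTP, had 517, 223, 368 and 275.3 normalized counts after MS-275, against 19050.5, 21408 and 16222 in control. Robo4, Clec14a, S1pr1 and Cd93 fell, with log2 fold changes of −6.55, −6.43, −5.08 and −4.27.

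Control ECs carried high levels of the defining EC markers named by the label, with Cdh5 among their 10 most abundant genes, and MS-275 ECs still carried Pecam1 at 3002, Cdh5 at 5389 and Kdr at 8441 normalized counts on average. Kdr, the main receptor for VEGF, fell less than most of the list (log2 fold change −1.26 ± 0.35 (SE), adjusted p = 0.0095, adjusted p = 0.071 with close pairs averaged). Cd34 and Podxl did not pass the test, with log2 fold changes of −1.98 and −0.62, nor did Cyyr1 at 0.15. Vwf, von Willebrand factor, was the 1 gene called higher, with 1743, 934, 1152 and 859 normalized counts after MS-275, against 116, 78.3 and 1369.5 in control. Control replicate 3 lay inside the range of MS-275 libraries. The call was lost with close pairs averaged (adjusted p = 0.31), and neither edgeR nor DESeq2 called the gene. It was also lost, with adjusted p of 0.053 to 0.16, without control replicate 1 or 2 or without MS-275 replicate 1, 2 or 3. In RNA from a whole culture, fewer ECs and less RNA per EC cannot be told apart.

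**Figure D3:**
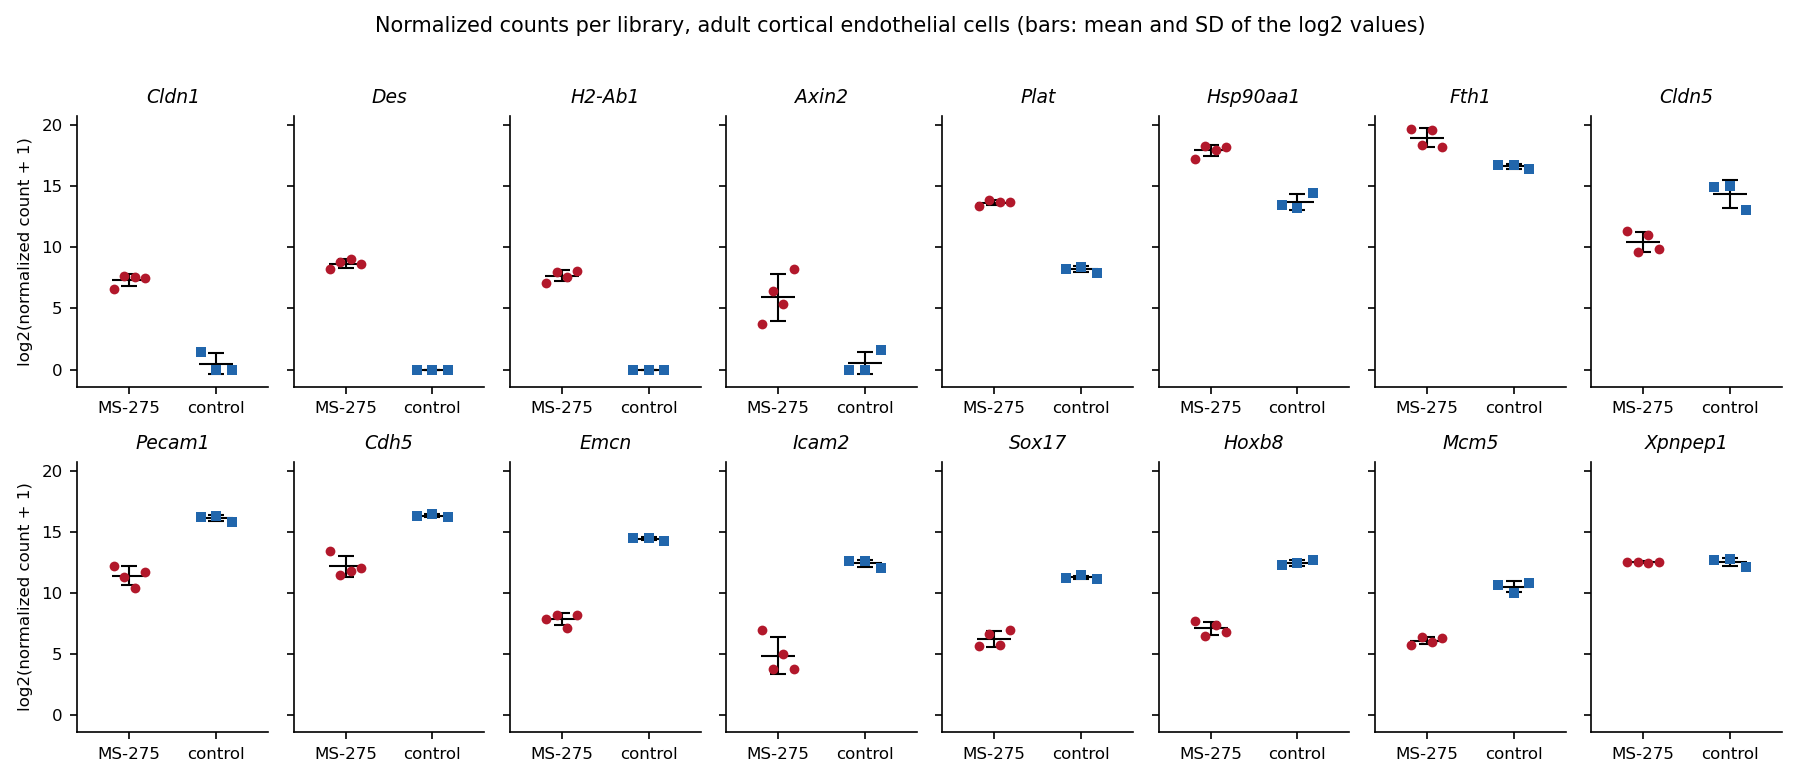
Values of 16 genes by library, as log2(normalized count + 1), with MS-275 libraries as red circles to the left and control libraries as blue squares to the right, and bars for the mean and SD of the log2 values (4 and 3 libraries). Cldn1, Des, H2-Ab1 and Axin2 lie near 0 in control ECs and above it in all MS-275 libraries, Pecam1, Cdh5, Emcn and Icam2 lie lower in all MS-275 libraries, and Xpnpep1 shows a gene that did not pass the test.

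Markers of other cell types were examined beside the fall of the EC genes, and most were too low to compare. Of 7 pericyte markers only Pdgfrb passed the filter, without a call by limma or edgeR and called higher by DESeq2, and their summed level was 8.74 to 83.6 in MS-275 libraries and 12.2 to 39.4 in control libraries. Without MS-275 replicate 2, Pdgfrb was called higher (adjusted p = 0.023). Kcnj8 and Vtn of this list had no read in either group. Of 12 microglial and macrophage markers 3 were compared and none passed the test in limma, with 1 lower at an unadjusted p under 0.05 and 1 called lower by DESeq2 and 0 by edgeR. Their sum, 3227 to 8494 in MS-275 libraries and 7598 to 15055 in control libraries, was mostly Cd68, while P2ry12, C1qa and C1qc had no read in either group. Cd68 was called lower without control replicate 3 (adjusted p = 0.046) or MS-275 replicate 1 (adjusted p = 0.036), with 2 and 1 genes of the list then lower. Of 10 neural progenitor markers 3 were compared and Lhx2 and Ncan were higher, with sums of 2338 to 4910 in MS-275 libraries and 1889 to 4851 in control libraries, mostly of Nes, which did not pass the test. The call of Lhx2 was lost with close pairs averaged (adjusted p = 0.19) and without control replicate 1 (adjusted p = 0.055) or 2 (adjusted p = 0.073). Sox2 had no read in either group. Of 12 neuron markers 5 were compared, 3 higher and 1 lower, with sums of 622 to 870 in MS-275 libraries and 443 to 1048 in control libraries, and Dcx and Neurod1 had no read in either group. Of 8 astrocyte markers 3 were compared and 2 were higher, with sums of 68.9 to 138 in MS-275 libraries and 4.07 to 85.8 in control libraries. Of these, Gfap averaged 3.02 in MS-275 ECs and 0.657 in control ECs. Of 7 oligodendrocyte lineage markers 3 were compared, 1 higher and 1 lower, with sums of 627 to 1078 in MS-275 libraries and 1407 to 1466 in control libraries, and Olig2 had no read in either group. With close pairs averaged neither call held. Of 4 choroid plexus and ependyma markers 1 was compared and was higher, without a call when close pairs were averaged, with sums of 11.1 to 24.0 in MS-275 libraries and 0 to 3.47 in control libraries. With close pairs averaged, 1 neural progenitor, 2 neuron and 2 astrocyte markers were higher and none of these was lower. Members with no control library at 10 could pass the filter only by being higher. They were 1 of 3 neural progenitor, 3 of 5 neuron, 2 of 3 astrocyte and 1 of 3 oligodendrocyte lineage markers compared. The 1 choroid plexus and ependyma marker compared was also such a member.

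Lists with muscle, fibroblast, epithelial and erythroid genes held more members that rose. Of 8 smooth muscle markers 6 were compared and 5 were higher (4 with close pairs averaged), and their sum was 499 to 839 in MS-275 libraries and 85.0 to 88.4 in control libraries. Des carried most of this sum. Acta2, the defining actin of smooth muscle, had 11.9, 10.9, 16.2 and 5.05 normalized counts after MS-275, against 15.6, 12.2 and 7.89 in control, and did not pass the test (log2 fold change −0.15 ± 0.55 (SE), adjusted p = 0.83). Myl9 had no read in either group. Of 10 fibroblast and meningeal markers 7 were compared and 4 were higher (2 with close pairs averaged), with sums of 1894 to 2899 in MS-275 libraries and 331 to 2186 in control libraries. Col1a1, the collagen I α1 chain, averaged 84 in MS-275 ECs and 13.6 in control ECs (log2 fold change 2.60 ± 0.53 (SE), adjusted p = 0.0015). Col1a2, Fbln1 and Slc6a13, the other 3, averaged 11.7, 13.1 and 49.6 in MS-275 ECs, with no control read. Of these, Col1a2 and Fbln1 were not called with close pairs averaged (adjusted p = 0.0501 and 0.073). Dcn and Col3a1, the defining fibroblast genes, averaged 1.26 and 0.405 in MS-275 ECs and 0 and 3.89 in control ECs, and Lum had no read in either group. All 3 epithelial markers compared, of 7, were higher (2 with close pairs averaged), and the list summed to 81.9 to 109 in MS-275 libraries and 1.97 to 5.21 in control libraries, with Krt19 at 69.9, 15.3, 68.1 and 15.2 normalized counts after MS-275, against 0, 0 and 0 in control. Of 6 erythroid markers 3 were compared and 2 were higher, with sums of 487 to 741 in MS-275 libraries and 12.1 to 17.3 in control libraries. Hba-a1, the hemoglobin α chain, had 252, 244, 371 and 239.9 normalized counts after MS-275, against 0, 0 and 0 in control, and its copy Hba-a2 had 238, 243, 355 and 231 normalized counts after MS-275, against 0, 0 and 0 in control. Hbb-bs and Hbb-bt, the β chains, had no read in either group, and Alas2 did not pass the test. Hba-a1 and Hba-a2 are near-identical copies, so reads may be divided between them. Members of these lists with no control library at 10 had to be higher to pass the filter. They were 3 of 6 smooth muscle, 3 of 7 fibroblast and meningeal, 3 of 3 epithelial and 2 of 3 erythroid markers compared. The part of other cells in the results was not tested.

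Transcription factors that specify ECs were lower in most cases. Of 32 endothelial and BBB transcription factors 27 were compared, 18 were lower (17 with close pairs averaged) and 2 were higher in both fits. Erg, an ETS factor required for EC identity, had 3799.9, 1075, 2466 and 1247 normalized counts after MS-275, against 13086, 14154 and 12748 in control. Fli1, its close relative, had 97.2, 41.5, 64.9 and 50.5 normalized counts after MS-275, against 2982, 2778 and 7286 in control. Sox17, a SoxF factor of arterial and barrier ECs, had 51.2, 101, 51.9 and 126 normalized counts after MS-275, against 2471, 2782 and 2343 in control. All control libraries exceeded all MS-275 libraries for the 3 genes, by 6.21-fold, 68.4-fold and 30.7-fold in the means. Sox18 fell by 6.50 on the log2 scale, and the hematopoietic and endothelial factors Lyl1, Lmo2 and Tal1 fell, with log2 fold changes of −5.05, −5.86 and −3.48. Klf2, Klf4, Foxo1 and Epas1 did not pass the test, with log2 fold changes of −0.32, −0.36, 0.16 and 0.19. The 2 factors that rose were Hey2, a Notch target of arterial ECs with 75.1, 153, 109 and 133 normalized counts after MS-275, against 0, 0 and 1.97 in control, and Lef1, described with the Wnt genes. Neither had a control library at 10, so both could pass the filter only by being higher. Foxf2 and Foxq1 were below the filter, and Foxf2 had a read in 1 MS-275 library and in no control library.

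Junction genes changed in both directions, and the claudins moved apart. Cldn1 encodes claudin-1, a tight junction strand protein of epithelia and of brain ECs (chromosome 16, 26356642 to 26371841), and it had 97.2, 199, 189.8 and 182 normalized counts after MS-275, against 1.73, 0 and 0 in control (log2 fold change 6.85 ± 0.71 (SE), adjusted p = 1.9e-05). The control group holds 2 reads of Cldn1, so the ratio of the pooled reads, each group's reads over its summed size factors, was 258 and has a 95% counting interval of 71.2 to 2136. MS-275 replicate 1 was the lowest of its group. Cldn5, the most abundant claudin of brain ECs (chromosome 16, 18776847 to 18778262), had 2559.7, 802, 2016 and 922 normalized counts after MS-275, against 31200.3, 33861 and 8340.3 in control (log2 fold change −3.88 ± 0.64 (SE), adjusted p = 0.00039). Control replicate 3 was the lowest control library and still exceeded every MS-275 library. Both calls held with close pairs averaged (adjusted p = 0.0055 for Cldn1 and 0.022 for Cldn5). Cldn12 did not pass the test (log2 fold change −0.16 ± 0.13 (SE), adjusted p = 0.32), and Cldn11 had no read in either group.

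The 250 bases upstream of the annotated start of 4 genes are shown because these genes carry the contrast between genes that rose from near 0 after MS-275 and EC genes that fell. The sequences are from RefSeq (GRCm38.p6, mm10), read 5′ to 3′ on the gene's strand. Cldn1 and Des, near 0 in control ECs, come first, and Cldn5 and Emcn follow. Cldn1 is at chr16:26371840-26372089 on the minus strand, Des at chr1:75360042-75360291, Cldn5 at chr16:18776597-18776846 and Emcn at chr3:137340828-137341077, all 3 on the plus strand. Capitals mark matches on either strand to the GC box (GGGCGG), the TATA box (TATAAA), the CCAAT box (CCAAT) and the cyclic AMP element (TGACGTCA).
Cldn1: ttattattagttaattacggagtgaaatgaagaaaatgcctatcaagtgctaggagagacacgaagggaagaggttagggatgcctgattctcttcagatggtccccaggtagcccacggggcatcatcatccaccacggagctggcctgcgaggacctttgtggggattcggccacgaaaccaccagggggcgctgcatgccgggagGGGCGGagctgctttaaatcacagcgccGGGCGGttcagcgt
Des: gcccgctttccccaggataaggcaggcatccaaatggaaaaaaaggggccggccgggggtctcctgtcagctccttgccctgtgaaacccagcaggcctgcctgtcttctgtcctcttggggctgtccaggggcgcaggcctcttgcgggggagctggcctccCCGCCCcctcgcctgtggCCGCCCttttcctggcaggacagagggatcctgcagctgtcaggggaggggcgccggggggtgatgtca
Cldn5: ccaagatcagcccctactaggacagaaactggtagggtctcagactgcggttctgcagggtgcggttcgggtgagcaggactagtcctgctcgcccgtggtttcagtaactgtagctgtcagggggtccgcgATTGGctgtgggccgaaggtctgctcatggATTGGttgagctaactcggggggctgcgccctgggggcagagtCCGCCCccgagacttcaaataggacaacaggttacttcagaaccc
Emcn: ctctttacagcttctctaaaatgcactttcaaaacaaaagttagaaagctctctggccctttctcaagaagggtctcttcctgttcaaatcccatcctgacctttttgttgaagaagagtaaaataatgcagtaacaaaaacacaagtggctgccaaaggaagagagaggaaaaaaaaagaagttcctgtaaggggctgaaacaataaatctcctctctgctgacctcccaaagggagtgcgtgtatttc
Cldn1 held 2 GC boxes in a window of 55.6% G+C with 14 CpG dinucleotides, and Des held 2 GC boxes in one of 67.2% G+C with 10. Cldn5 held 1 GC box and 2 CCAAT boxes at 59.6% G+C with 12 CpG dinucleotides. Emcn held none of the 4 motifs, at 40.8% G+C with 1 CpG. Across 32851 promoter windows of mouse genes, each of 250 bases before and 50 after the start, 35.7% held a GC box, 37.4% a CCAAT box, 13.6% a TATA box and 1.79% a cyclic AMP element. In the 13677 of these windows that belong to genes compared here, the shares were 60.2%, 37.95%, 7.57% and 2.91%. The 4 windows are examples and a match is a description of the letters. A comparison of promoters between genes that rose and fell was void, because 77.8% of the genes compared had a promoter in the RefSeq table, below the 80% required.

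Among the other junction genes, Cgn, encoding the tight junction scaffold cingulin, had 1127, 966, 1353 and 855 normalized counts after MS-275, against 12.1, 20.3 and 3.94 in control (log2 fold change 6.57 ± 0.68 (SE), adjusted p = 1.8e-05). Nectin3, an adhesion partner of nectins, rose by 2.12 and Tjp3 (ZO-3) by 2.84 on the log2 scale, and the call of Tjp3 was lost with close pairs averaged (adjusted p = 0.061). Tjp1 (ZO-1) had 11941, 10599, 9110.1 and 11621 normalized counts after MS-275, against 13683, 11661 and 29041 in control, and did not pass the test (log2 fold change −0.63 ± 0.37 (SE), adjusted p = 0.16), and neither did Ocln (occludin), whose groups overlapped (log2 fold change −0.16 ± 0.90 (SE), adjusted p = 0.89). F11r (JAM-A) and Jam2 fell, with log2 fold changes of −1.58 and −1.86, and Jam2 was not called with close pairs averaged (adjusted p = 0.067). Over the whole list 29 of 32 genes were compared, 5 were higher and 12 lower (3 and 6 with close pairs averaged), and the median was −0.58. Of the 29 genes, 2 had no control library at 10.

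BBB transporters were higher and lower in shares near those of all genes, with 7 of 20 compared genes higher and 4 lower (4 and 1 with close pairs averaged) and a median of 0.32. Of the 20 genes, 3 had no control library at 10. Slc2a1, the glucose transporter GLUT1 of the BBB, had 8411, 6487, 8064 and 5746 normalized counts after MS-275, against 3252, 3476 and 1789 in control (log2 fold change 1.38 ± 0.36 (SE), adjusted p = 0.0066), and the call was lost with close pairs averaged (adjusted p = 0.077). Abcg2, the efflux pump BCRP, had 2140.1, 2624, 2378 and 2675 normalized counts after MS-275, against 619, 522 and 994 in control. Tfrc, the transferrin receptor, had 13447, 10379.7, 15722 and 9121 normalized counts after MS-275, against 5049, 3993 and 2932 in control. Both were higher in every MS-275 library. Slc38a3, a glutamine transporter, had 54.6, 101, 53.5 and 70.7 normalized counts after MS-275, against 0, 2.03 and 0 in control. Mfsd2a, a lipid transporter that limits transcytosis, had 18.8, 0, 22.7 and 0 normalized counts after MS-275, against 19.08, 24.4 and 0 in control, and did not pass the test (log2 fold change −0.78 ± 1.52 (SE), adjusted p = 0.68). It was absent in MS-275 replicates 2 and 4 and in control replicate 3. Abcb1a, the efflux pump P-glycoprotein, did not pass the test either (log2 fold change 0.53 ± 0.60 (SE), adjusted p = 0.47).

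Genes of caveolae and fenestrae, structures that carry or pass molecules across ECs, were mostly lower. Of 10 genes 8 were lower (5 with close pairs averaged) and 1, Pacsin2, was higher by 0.42 (adjusted p = 0.15 with close pairs averaged). Pacsin2 was not called without control replicate 3, MS-275 replicate 2 or MS-275 replicate 4 (adjusted p = 0.052 to 0.058). Cav1, the main caveolar coat protein, had 6249, 1581, 4130.1 and 1741 normalized counts after MS-275, against 15433, 12649 and 34123 in control (log2 fold change −2.70 ± 0.49 (SE), adjusted p = 0.00082). Plvap, the diaphragm protein of fenestrae, had 745, 1369, 294 and 1451 normalized counts after MS-275, against 6506, 5893 and 5594 in control (log2 fold change −2.88 ± 0.49 (SE), adjusted p = 0.0005). Cavin2 and Ehd2, which shape the caveolar neck and coat, fell, with log2 fold changes of −2.43 and −1.42.

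Angiogenic signaling genes were lower or did not pass the test. Of 16 VEGF, angiopoietin and tip-cell genes compared, 9 were lower (5 with close pairs averaged) and 0 were higher in limma. At an unadjusted p under 0.05, 1 was higher, and edgeR and DESeq2 each called 0 higher. Without control replicate 3 limma called 1 higher. Angpt2, the angiopoietin that destabilizes vessels, had 56.3, 40.4, 50.3 and 36.6 normalized counts after MS-275, against 643, 729.9 and 285 in control (log2 fold change −3.47 ± 0.33 (SE), adjusted p = 1.2e-05). Pgf, placental growth factor, fell by 3.09 and Flt1, the VEGF receptor 1, fell by 2.10 on the log2 scale, a call that Flt1 lost with close pairs averaged (adjusted p = 0.052). Vegfa did not pass the test, with 506, 391, 664 and 255 normalized counts after MS-275, against 547, 587 and 331 in control, and Apln, the tip-cell peptide apelin, did not either, with replicates 1 and 3 of MS-275 ECs within the range of control ECs (23549, 3102, 17006 and 5804 normalized counts after MS-275, against 29102, 27669 and 11993 in control). Without MS-275 replicate 1, Apln was called lower (adjusted p = 0.033).

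Notch receptors moved in opposite directions. Notch4, which is expressed mainly in ECs, had 374, 88.5, 210.0 and 98.5 normalized counts after MS-275, against 11995, 12249.7 and 6622 in control (log2 fold change −5.93 ± 0.44 (SE), adjusted p = 2.6e-06). Notch1 had 2122, 1425, 1627 and 1516 normalized counts after MS-275, against 6379, 6313 and 5726 in control (log2 fold change −1.89 ± 0.18 (SE), adjusted p = 1.2e-05). Notch3, the receptor of mural cells, had 161, 142, 145 and 145 normalized counts after MS-275, against 0, 0 and 14.8 in control (log2 fold change 5.89 ± 0.79 (SE), adjusted p = 0.0001), and Notch2 rose by 1.71 (adjusted p = 0.055 with close pairs averaged). The ligand Dll4 of arterial and tip cells had 106, 48.1, 73.8 and 68.2 normalized counts after MS-275, against 2969, 2936 and 1724 in control, whereas Jag1 did not pass the test (log2 fold change −0.21 ± 0.25 (SE), adjusted p = 0.5). Of 17 Notch pathway genes compared 4 were higher and 9 lower, and 2 and 7 with close pairs averaged. The shares were 23.5% and 52.9%, beside 32.1% and 25.5% of all genes. Of 6 venous genes compared 3 were lower and 2 higher (3 and 0 with close pairs averaged), with a median of −0.03. Those lower were Nr2f2, Ephb4 and Nrp2, with log2 fold changes of −2.47, −2.02 and −2.63. Of the 6 genes, 2 could pass the filter only through MS-275 libraries. The venous genes called higher counted 1 by edgeR and 1 by DESeq2. Of 9 arterial genes compared 2 were higher and 2 lower (1 and 2 with close pairs averaged). Of 5 lymphatic and sinusoidal genes compared 3 were lower and 1, Reln, was higher (2 and 0 with close pairs averaged). The receptors Stab1 and Lyve1 of this list fell, with log2 fold changes of −6.49 and −4.78. Lyve1 had 5484, 215, 1475 and 284 normalized counts after MS-275, against 26159, 22633 and 20679 in control, with MS-275 replicates 1 and 3 above replicates 2 and 4.

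Several Wnt ligands, which signal to Frizzled receptors, were higher after MS-275 at low levels. Wnt7a, a neural ligand that drives brain angiogenesis, had 87, 17.5, 108 and 17.7 normalized counts after MS-275, against 0, 0 and 0 in control (log2 fold change 5.41 ± 1.06 (SE), adjusted p = 0.0013). Replicates 1 and 3 stood well above replicates 2 and 4, and no control library had a read, so the mean was at least 20-fold higher. Wnt8b had 20.5, 12, 37.3 and 15.2 normalized counts after MS-275, against 0, 0 and 0 in control. Wnt7b, the partner of Wnt7a, had 22.2, 19.7, 17.8 and 53 normalized counts after MS-275, against 12.1, 12.2 and 1.97 in control. Wnt7b was called (log2 fold change 1.72 ± 0.58 (SE), adjusted p = 0.025), but not with close pairs averaged (adjusted p = 0.091). The call was also lost without control replicate 3 (adjusted p = 0.090) or MS-275 replicate 4 (adjusted p = 0.069). Wnt5a, a mostly noncanonical ligand, fell (142, 87.4, 122 and 83.3 normalized counts after MS-275, against 441, 389 and 465 in control). Of 19 Wnt ligands 10 were compared, 5 higher and 2 lower (3 and 1 with close pairs averaged). Of the 5 that rose, Wnt4, Wnt7a, Wnt8b and Wnt16 had no control library at 10, so they could pass only by being higher, and Wnt4 was not called with close pairs averaged (adjusted p = 0.053). The summed level of the list was 280 to 525 in MS-275 libraries and 510 to 580 in control libraries.

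The receptors for these ligands changed both ways. Lrp6, the Wnt coreceptor, had 7229.6, 10117, 7919 and 10333 normalized counts after MS-275, against 3349, 3291 and 4371 in control (log2 fold change 1.27 ± 0.17 (SE), adjusted p = 9.3e-05), while Lrp5 fell by 1.13. Reck, which with Adgra2 (Gpr124) forms the receptor complex for Wnt7 in brain ECs, had 623, 768, 612 and 737 normalized counts after MS-275, against 112, 155 and 307 in control, while Adgra2 fell by 2.46. Fzd4, the Frizzled of the retinal and brain vasculature, had 1476, 2235, 1458 and 2081 normalized counts after MS-275, against 4946, 5002 and 8029 in control (log2 fold change −1.71 ± 0.37 (SE), adjusted p = 0.0023, adjusted p = 0.051 with close pairs averaged). Lgr4, a receptor for R-spondin, rose in every library (481, 376, 489 and 402 normalized counts after MS-275, against 62.5, 79.3 and 86.8 in control). In this list 6 of 17 genes were higher and 7 lower (3 and 3 with close pairs averaged), with a median of −0.31. The shares were 35.3% and 41.2%, beside 32.1% and 25.5% of all genes.

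Genes known as targets of canonical Wnt signaling were higher in most cases, with 8 of 12 compared genes higher and 2 lower (5 and 1 with close pairs averaged) and a median of 2.27. Of the 12, 5 had no control library at 10 and could only be higher. Axin2, the feedback inhibitor used as a Wnt reporter, had 11.9, 83.1, 38.9 and 298 normalized counts after MS-275, against 0, 0 and 1.97 in control (log2 fold change 5.38 ± 0.87 (SE), adjusted p = 0.00036). The 4 MS-275 libraries spread over a wide range, all above control ECs. Lef1, a TCF/LEF factor that is itself a target, had 5.12, 15.3, 13 and 20.2 normalized counts after MS-275, against 0, 2.03 and 0 in control, a low level of at most 20.2 normalized counts. Tcf7, another factor of this family, had 312, 271, 364 and 442 normalized counts after MS-275, against 6.94, 12.2 and 17.7 in control (log2 fold change 4.77 ± 0.35 (SE), adjusted p = 2.2e-06). Rnf43, a ubiquitin ligase that removes Frizzled, had 18.8, 36.1, 25.1 and 72 normalized counts after MS-275, against 0, 0 and 0 in control. Apcdd1, a Wnt inhibitor of BBB vessels, had 572, 1092, 600.1 and 864 normalized counts after MS-275, against 144, 103 and 247 in control (log2 fold change 2.28 ± 0.51 (SE), adjusted p = 0.003), and the call was lost with close pairs averaged (adjusted p = 0.064). The 2 targets that fell were Ccnd1 and Myc, which many other pathways also regulate. Ccnd1 (cyclin D1) had 11499, 1878, 7367 and 3308 normalized counts after MS-275, against 43094, 37869.5 and 37527 in control (log2 fold change −3.04 ± 0.50 (SE), adjusted p = 0.00041), and Myc fell by 2.36 (adjusted p = 0.089 with close pairs averaged). β-Catenin itself (Ctnnb1) had 31601, 28443, 27731 and 27408 normalized counts after MS-275, against 62278, 69209.5 and 34702 in control (log2 fold change −0.88 ± 0.22 (SE), adjusted p = 0.0054), and the call did not hold with close pairs averaged (adjusted p = 0.15). Of 14 Wnt antagonists 4 were compared, with 2 higher and 0 lower in limma (1 and 0 with close pairs averaged). Of the 4, edgeR called 1 lower, and 1 had no control library at 10. Of the secreted antagonists Wif1 had 52.9, 76.5, 103 and 84.6 normalized counts after MS-275, against 0, 0 and 0 in control, whereas Dkk1, Dkk3, Sfrp1 and Sfrp2 stayed below the filter in both groups.

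The genes of class I HDACs, the class that the study takes MS-275 to inhibit, showed small changes. Hdac1 had 2424, 2771, 2491 and 2875 normalized counts after MS-275, against 1460.0, 1603 and 1629 in control (log2 fold change 0.75 ± 0.17 (SE), adjusted p = 0.0035) and was not called with close pairs averaged (adjusted p = 0.088). Hdac2 had 4567, 7470.2, 4868 and 7345 normalized counts after MS-275, against 3295, 2929.8 and 6013 in control, without passing the test (adjusted p = 0.08). Hdac3 had 1112, 1063, 1152 and 972 normalized counts after MS-275, against 898, 936 and 781 in control, and did not pass it either (adjusted p = 0.086). Without control replicate 3, Hdac2 was called higher (adjusted p = 0.0083), so that 2 of the 4 genes were higher. Hdac8 was the 1 that fell, with 319.9, 196, 188 and 148 normalized counts after MS-275, against 458, 466 and 422 in control (log2 fold change −1.13 ± 0.24 (SE), adjusted p = 0.0023). Among other deacetylases Hdac7, a class IIa enzyme of ECs, fell by 3.52, and Hdac9 fell by 1.98.

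Subunits of HDAC corepressor complexes were lower more often than higher. Of 26 subunits 14 were lower and 4 higher, and with close pairs averaged limma called 8 lower and 0 higher. The shares with all libraries were 53.8% lower and 15.4% higher, beside 25.5% and 32.1% of all genes. With all libraries, 4 were also higher at an unadjusted p under 0.05, by edgeR and by DESeq2, and the median was −0.44. Chd3, an ATPase of the NuRD complex, had 783, 504, 694 and 499 normalized counts after MS-275, against 6908, 7983 and 4939.7 in control (log2 fold change −3.41 ± 0.20 (SE), adjusted p = 7.5e-07), while its relative Chd4 had 11469.7, 16013, 11523 and 16528 normalized counts after MS-275, against 12767, 12994 and 12710.1 in control, and did not pass the test. Mta1, a further NuRD subunit, had 1133, 742, 912 and 802 normalized counts after MS-275, against 2872, 2879 and 2642 in control. Its relative Mta3 had 408, 286, 313 and 327 normalized counts after MS-275, against 1687, 1765 and 1977 in control. Of the 12 histone acetyltransferases and acetyl-lysine readers 8 were lower and 0 higher in limma (3 lower with close pairs averaged). The count was also 0 at an unadjusted p under 0.05, and edgeR and DESeq2 each called 0 higher. Without MS-275 replicate 1 limma called 1 higher. Kat2b (PCAF) had 138, 51.4, 105 and 77 normalized counts after MS-275, against 891, 794 and 731 in control. Kat2a (GCN5) had 913, 754, 743 and 758 normalized counts after MS-275, against 3031, 2998 and 2046 in control. Crebbp (CBP) had 1184, 1315, 1188 and 1213 normalized counts after MS-275, against 2877, 3195 and 2774 in control. All MS-275 libraries were below all control libraries for these 3 enzymes. Core subunits of PRC2, the complex that methylates lysine 27 of histone H3, did not pass the test. Ezh2, its enzyme, had 712, 995, 923 and 991 normalized counts after MS-275, against 689, 479.8 and 1083 in control. Eed had 1286, 1547, 1245 and 1563 normalized counts after MS-275, against 1031, 966 and 1482 in control. Suz12 had 3298, 4478, 3621 and 4588 normalized counts after MS-275, against 2581, 2257 and 4553 in control. Without control replicate 3, Eed and Suz12 were called higher (adjusted p = 0.012 and 0.0059). Ezh1 and Phf19 were called lower, with log2 fold changes of −0.79 and −2.15, and the call of Ezh1 was lost with close pairs averaged (adjusted p = 0.12).

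Genes used as markers of HDAC inhibition in other cells responded in part. Of 10 such genes 6 were higher and 1 was lower (5 and 1 with close pairs averaged), and 3 had no control library at 10. Mt2, a metallothionein, had 102, 78.7, 119 and 58.1 normalized counts after MS-275, against 1.73, 2.03 and 0 in control. Tubb3, a neuronal tubulin, had 568, 334, 465 and 336 normalized counts after MS-275, against 1.73, 2.03 and 0 in control. Clu (clusterin) and Rhob rose by 4.79 and 1.98. Cdkn1a (p21), the classical marker, had 8051, 8563, 7826 and 8323 normalized counts after MS-275, against 10686, 10599.8 and 9654 in control: all 4 MS-275 libraries were below the control libraries, by a difference that did not pass the test (log2 fold change −0.33 ± 0.15 (SE), adjusted p = 0.083). H1f0, a linker histone, had 16251, 2273, 16825 and 2048 normalized counts after MS-275, against 9422, 9362 and 6119 in control, with replicates 1 and 3 above control ECs and replicates 2 and 4 below them, and did not pass the test (log2 fold change −0.45 ± 0.69 (SE), adjusted p = 0.6).

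Cell division genes fell nearly throughout. Of 30 genes 27 were lower (22 with close pairs averaged), 1 was higher and 2 did not pass the test, with a median log2 fold change of −2.15. Mcm5, a subunit of the replicative helicase, had 52.9, 83.1, 64.9 and 78.3 normalized counts after MS-275, against 1663, 1049 and 1832 in control (log2 fold change −4.40 ± 0.42 (SE), adjusted p = 1.1e-05). Aurkb, a mitotic kinase, had 29.9, 40.4, 47 and 25.3 normalized counts after MS-275, against 565, 378 and 442 in control. Ccnb1 (cyclin B1) had 90.4, 59, 97.3 and 55.6 normalized counts after MS-275, against 1046, 599.8 and 1384 in control. Control replicate 2 was the lowest control library for Mcm5, Aurkb and Ccnb1, and it exceeded all MS-275 libraries. Mki67, the proliferation antigen Ki-67, had 732, 427, 543 and 355 normalized counts after MS-275, against 2809.7, 1454 and 9559.9 in control. Top2a had 589, 855, 514 and 706 normalized counts after MS-275, against 3694, 1795 and 9299 in control, each with control replicate 3 highest. Pcna, the replication clamp, was the exception and rose (log2 fold change 1.23 ± 0.28 (SE), adjusted p = 0.0034). The CDK inhibitor Cdkn1c (p57) had 779, 738, 1276 and 768 normalized counts after MS-275, against 142, 207 and 21.7 in control, and the growth arrest gene Gadd45b had 813, 1000.0, 996 and 709.6 normalized counts after MS-275, against 57.3, 65.1 and 61.1 in control, both above all control libraries.

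Of 17 p53 targets compared 5 were higher and 5 lower (4 and 4 with close pairs averaged), shares near those of all genes. Mdm2, the p53 ubiquitin ligase, rose (log2 fold change 1.27 ± 0.33 (SE), adjusted p = 0.0068, adjusted p = 0.12 with close pairs averaged), while Zmat3 and Eda2r fell, with log2 fold changes of −1.95 and −2.40. Of 12 BCL2 family genes 6 were lower and 1 higher, and 2 and 1 with close pairs averaged. The shares were 50% lower and 8.33% higher, beside 25.5% and 32.1% of all genes. The pore former Bax had 1414, 1192, 1377 and 1429 normalized counts after MS-275, against 4332, 4389 and 3096 in control. Bak1, the other pore former, had 1015, 643, 847 and 655 normalized counts after MS-275, against 3125, 2937 and 2411 in control. The guardians Bcl2 and Bcl2l1 fell, with log2 fold changes of −0.98 and −1.13, without a call when close pairs were averaged (adjusted p = 0.058 and 0.15). Bcl2l1 was not called either without control replicate 1 or 2 or MS-275 replicate 2 or 4 (adjusted p = 0.063 to 0.071). Bmf, a BH3-only member of the family, rose (114, 315, 169 and 284 normalized counts after MS-275, against 32.1, 50.8 and 28.6 in control).

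**Figure D4:**
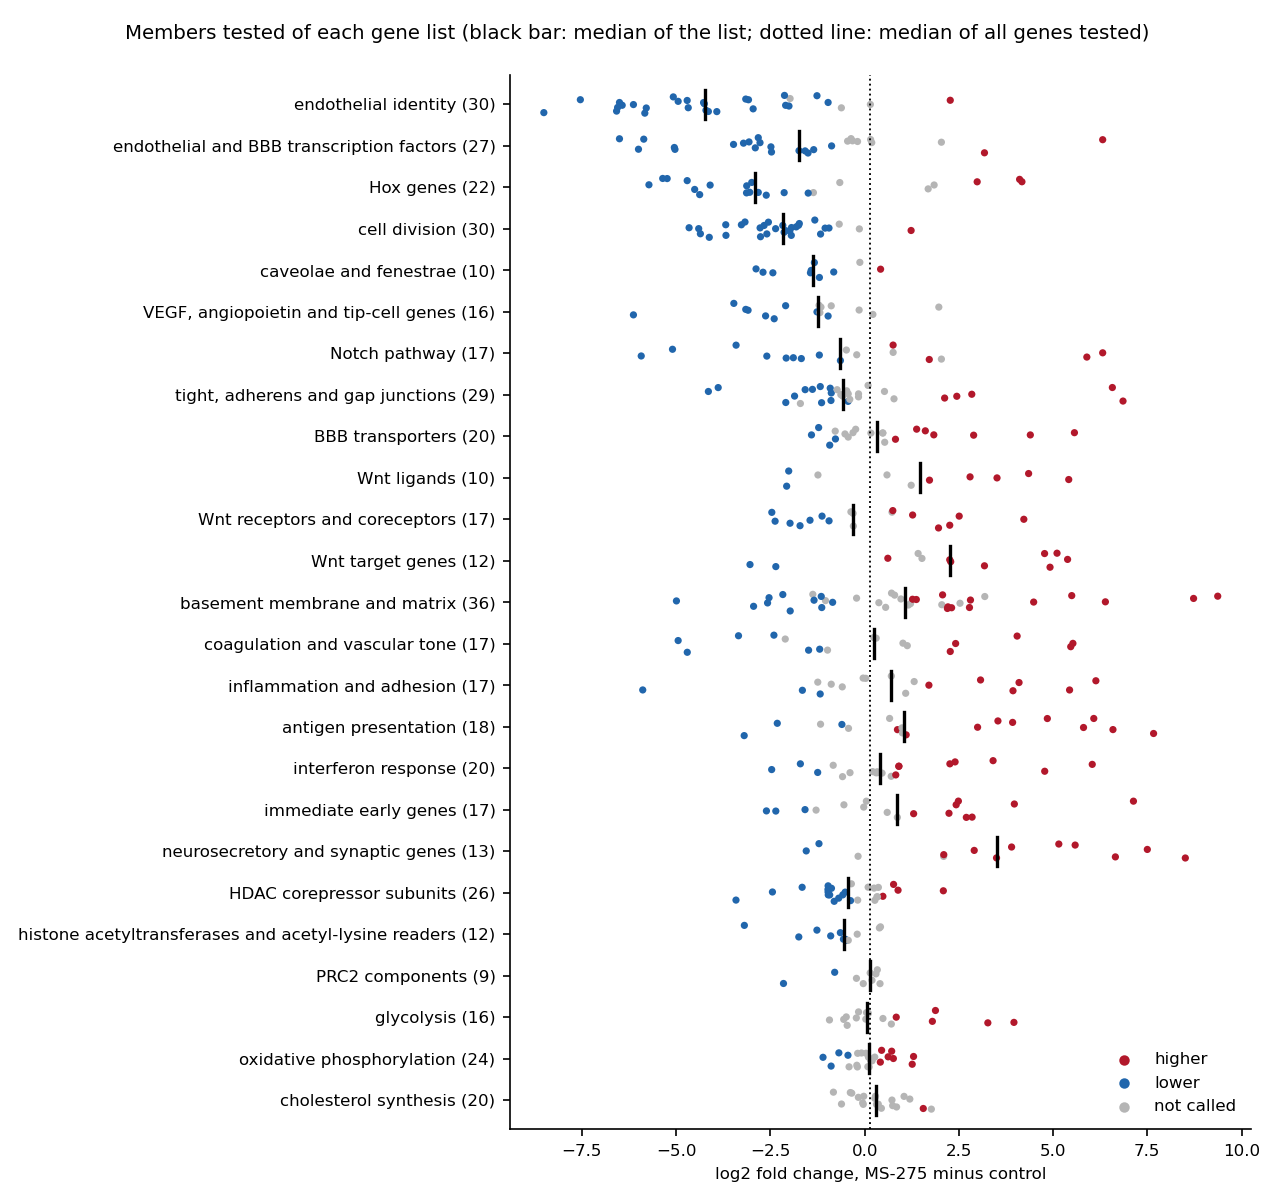
Log2 fold change (MS-275 minus control, horizontal axis) of each gene compared, by gene list, with the number of genes in parentheses. Red points were called higher, blue lower and grey not called, black bars are list medians and the dotted line is the median of all genes, 0.15. Medians run from −4.23 for endothelial identity to 3.50 for neurosecretory and synaptic genes, and lists such as matrix and Notch spread to both sides.

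Matrix genes changed in both directions. Col4a1, the collagen IV α1 chain, had 8811, 9588, 5521 and 11336 normalized counts after MS-275, against 45900.5, 49786 and 52885 in control (log2 fold change −2.54 ± 0.37 (SE), adjusted p = 0.00016). Lama4, the endothelial laminin α4, had 502, 173, 307 and 293 normalized counts after MS-275, against 3353, 3346 and 1078 in control. Col4a2, Hspg2 (perlecan) and Sparc fell, with log2 fold changes of −2.57, −1.97 and −2.17. Col6a2, of microfibrillar collagen VI, had 41.8, 146, 53.5 and 141 normalized counts after MS-275, against 0, 0 and 0 in control. Lama1, a laminin of embryonic and epithelial membranes, had 336, 577, 362 and 518 normalized counts after MS-275, against 15.6, 10.2 and 3.94 in control. Fn1 (fibronectin) had 27129, 28974, 20294 and 32256 normalized counts after MS-275, against 4220.2, 3723 and 12706 in control (log2 fold change 2.20 ± 0.43 (SE), adjusted p = 0.0012). Thbs1 (thrombospondin 1), an angiogenesis inhibitor, had 5384, 5437, 6181 and 5886 normalized counts after MS-275, against 234, 173 and 406 in control. The call of Fn1 was lost with close pairs averaged (adjusted p = 0.054). Tnc (tenascin C) fell by 4.99. Of 36 matrix genes compared 13 were higher and 10 lower (6 and 8 with close pairs averaged), and 7 of them had no control library at 10. These are 36.1% and 27.8% of the matrix genes, near the 32.1% and 25.5% of all genes. Of 15 genes of endothelial-to-mesenchymal transition 3 were higher and 4 lower (2 and 3 with close pairs averaged), which is 20% and 26.7%. Snai1, a transition factor, and Zeb2 did not pass the test (log2 fold changes −1.24 and −0.93), Vim (vimentin) fell (56206, 45769, 46109.9 and 48501 normalized counts after MS-275, against 107087, 106110 and 151060 in control), and the TGF-β receptors separated, with Tgfbr1 at 1.58 and Tgfbr2 at −3.18. Snai1 was called lower without MS-275 replicate 1 (adjusted p = 0.047), and Zeb2 without control replicate 2 or MS-275 replicate 1 or 3 (adjusted p = 0.024 to 0.048).

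Genes that set coagulation and fibrinolysis at the vessel wall showed wide changes. Plat, the tissue plasminogen activator tPA, had 10516, 15303, 13325 and 12966 normalized counts after MS-275, against 304, 333 and 243 in control (log2 fold change 5.47 ± 0.30 (SE), adjusted p = 5.0e-07). All 4 MS-275 libraries exceeded every control library by a wide margin. F3 (tissue factor), the initiator of coagulation, had 307, 331, 345 and 402 normalized counts after MS-275, against 15.6, 24.4 and 20.7 in control. F8 (factor VIII) fell by 4.70 and Pros1 (protein S) fell by 2.41. Thbd (thrombomodulin) had 12636, 811, 6448 and 687 normalized counts after MS-275, against 11655, 11327 and 10581 in control, with replicates 1 and 3 within the range of control ECs or above it, and did not pass the test. It was called lower without MS-275 replicate 1 (adjusted p = 0.010) or 3 (adjusted p = 0.045). Edn1, the vasoconstrictor endothelin 1, was low in both groups and rose (65.7, 31.7, 44.6 and 56.8 normalized counts after MS-275, against 5.2, 4.07 and 23.7 in control), a call lost with close pairs averaged (adjusted p = 0.11). The list counted 5 higher and 6 lower of 17 (3 and 4 with close pairs averaged). The shares were 29.4% and 35.3%, beside 32.1% and 25.5% of all genes.

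Class II antigen presentation genes, silent in control ECs, were read at low levels after MS-275. H2-Ab1, the β chain of the class II molecule I-A, had 131, 251, 189.8 and 265 normalized counts after MS-275, against 0, 0 and 0 in control, at least 73-fold higher, and H2-Aa, its α chain, had 25.6, 78.7, 101 and 96 normalized counts after MS-275, against 0, 0 and 0 in control. H2-Eb1, of the class II molecule I-E, had 73.4, 98.4, 95.7 and 119 normalized counts after MS-275, against 0, 0 and 0 in control. No control library had a read of these 3 genes and every MS-275 library had reads of each. Cd74, the invariant chain of class II molecules, had 3.41, 18.6, 8.11 and 54.3 normalized counts after MS-275, against 0, 0 and 4.93 in control, a call lost with close pairs averaged (adjusted p = 0.11). It was also lost without control replicate 1 or 2 (adjusted p = 0.059 and 0.057). Ciita, the class II transactivator, did not pass the test (log2 fold change 0.99 ± 0.44 (SE), adjusted p = 0.075). Of the class I genes B2m had 9364, 11194, 10806 and 11255 normalized counts after MS-275, against 5155, 4917 and 7737 in control. H2-K1 had 5519, 2764, 6485 and 2438 normalized counts after MS-275, against 730.4, 863 and 26.6 in control, with control replicate 3 far below the other control libraries, and both calls were lost with close pairs averaged (adjusted p = 0.087 and 0.097). H2-K1 was not called without control replicate 3 (adjusted p = 0.076). Nlrc5, the class I transactivator, rose by 5.81 and H2-T23 fell by 3.19 (adjusted p = 0.087 with close pairs averaged). Over the list 10 of 18 genes were higher and 3 lower (5 and 1 with close pairs averaged), and 7 had no control library at 10. H2 genes share sequence, so reads may be divided among them. Markers of the professional presenting cells, Ptprc (CD45) and Itgam, averaged 6.64 and 3.96 in MS-275 ECs and 0.657 and 0 in control ECs.

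Interferon-induced genes split. Rsad2 (viperin) had 982, 6725, 1846 and 4694 normalized counts after MS-275, against 154, 139 and 45.4 in control (log2 fold change 4.78 ± 0.69 (SE), adjusted p = 0.00017). Oas3, which makes the activator of RNase L, had 259, 48.1, 207 and 58.1 normalized counts after MS-275, against 0, 0 and 3.94 in control, whereas the RNA sensor Ddx58 (RIG-I) had 832, 684, 617 and 750.0 normalized counts after MS-275, against 3724, 3849 and 4342 in control. Irf7 did not pass the test (log2 fold change 0.21 ± 0.36 (SE), adjusted p = 0.63). Of 20 compared genes 8 were higher and 3 lower (4 and 1 with close pairs averaged), and 2 had no control library at 10. These are 40% and 15% of the list, beside 32.1% and 25.5% of all genes. The count of higher genes was 5 without control replicate 1 or MS-275 replicate 4, and that of lower genes was 5 without MS-275 replicate 1. Among inflammatory genes the chemokine Cxcl10 had 71.6, 2595, 188 and 2043 normalized counts after MS-275, against 5.2, 12.2 and 3.94 in control, with replicates 2 and 4 far above replicates 1 and 3, and Cx3cl1 (fractalkine) had 969, 586, 972 and 673 normalized counts after MS-275, against 76.3, 73.2 and 138 in control. Csf1, the macrophage growth factor, rose by 1.71. Selp, the P-selectin of Weibel-Palade bodies, fell (203, 128, 86 and 146 normalized counts after MS-275, against 7066, 7529.8 and 9667 in control), and Vcam1 did not pass the test, with control replicate 3 far above the other control libraries (57.1, 301, 54.3 and 277 normalized counts after MS-275, against 76.3, 48.8 and 1873 in control). Ccl2 fell by 1.65 with overlapping groups, and not with close pairs averaged (adjusted p = 0.22). The call of Ccl2 was also lost without control replicate 1 or 2 or MS-275 replicate 2 or 4 (adjusted p = 0.087 to 0.12).

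Immediate early genes, which respond within minutes to growth signals and stress, were more often higher than lower at 48 h. Egr2, a zinc finger factor, had 351, 372, 545 and 385 normalized counts after MS-275, against 1.73, 2.03 and 1.97 in control. Its relative Egr1 had 3893, 2666, 5270.3 and 1929 normalized counts after MS-275, against 408, 306 and 67 in control. Fos, a subunit of AP-1, had 583, 188, 705 and 157 normalized counts after MS-275, against 53.8, 63 and 37.5 in control. All MS-275 libraries exceeded all control libraries for the 3 genes. Junb rose (log2 fold change 2.49 ± 0.42 (SE), adjusted p = 0.00044), while the FOS family members Fosl1 and Fosl2 fell, with log2 fold changes of −1.58 and −2.60. Of 17 genes 8 were higher and 3 lower (5 and 2 with close pairs averaged), and 1 had no control library at 10. These are 47.1% and 17.6% of the list, beside 32.1% and 25.5% of all genes.

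Hox genes, which encode positional identity along the body axis, were mostly lower. Of 39 genes 22 were compared, 15 were lower and 3 higher (12 and 2 with close pairs averaged), with a median of −2.91. Hoxb8, with the highest count of a Hox gene in control ECs, had 211, 90.7, 169 and 112 normalized counts after MS-275, against 4955, 5572 and 6685 in control (log2 fold change −5.36 ± 0.49 (SE), adjusted p = 8.4e-06). Hoxb7 had 249.9, 94, 188 and 101 normalized counts after MS-275, against 2403, 2555 and 2567 in control. Hoxb5 had 15.4, 10.9, 17.8 and 7.58 normalized counts after MS-275, against 416, 424 and 716 in control. Control means exceeded MS-275 means by 39.4-fold, 15.8-fold and 40.1-fold. Hoxb3 and Hoxb6 fell, with log2 fold changes of −4.71 and −5.72, while Hoxd3 fell by 4.51 and Hoxd4 fell by 4.38. The 3 that rose lie toward the 5′ end of their clusters: Hoxb9 had 131, 338, 138 and 347 normalized counts after MS-275, against 20.8, 24.4 and 35.5 in control, and Hoxb13 and Hoxc13, neither with a control library at 10, rose by 4.11 and 4.17. The call of Hoxb9 was lost with close pairs averaged (adjusted p = 0.056).

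Neurosecretory and synaptic genes, many of which are repressed outside neurons, were higher in most cases. Of 20 genes 13 were compared, 9 were higher and 2 lower (7 and 0 with close pairs averaged). The median was 3.50, and 2.91 with genes without a control read set at their bound, while 4 of the 13 had no control library at 10. Vgf, a secreted neuropeptide precursor, had 1826, 5635, 3777 and 4593 normalized counts after MS-275, against 8.67, 4.07 and 19.7 in control (log2 fold change 8.51 ± 0.50 (SE), adjusted p = 7.4e-07). Bex1, a small brain-expressed protein, had 397, 197, 562 and 328 normalized counts after MS-275, against 0, 6.1 and 0 in control. Snap25, of the synaptic fusion machinery, had 112, 198, 177 and 109 normalized counts after MS-275, against 0, 0 and 1.97 in control. Stmn2 had 10.2, 173, 17.8 and 189 normalized counts after MS-275, against 0, 2.03 and 0 in control. Scg2 had 242, 2372, 465 and 2116 normalized counts after MS-275, against 13.9, 6.1 and 55.2 in control, both with replicates 2 and 4 above replicates 1 and 3. The neurofilament Nefl, abundant in both groups, was called lower (log2 fold change −1.21 ± 0.35 (SE), adjusted p = 0.012), though not with close pairs averaged (adjusted p = 0.2). Without control replicate 1 or 2 Nefl was not called (adjusted p = 0.056 in both cases) and no gene of the list was then lower. Among neuronal markers Slc17a7, the vesicular glutamate transporter VGLUT1, had 239, 621, 361 and 609 normalized counts after MS-275, against 3.47, 10.2 and 2.96 in control, whereas Rbfox3 (NeuN) stayed below the filter with means of 2.09 in MS-275 ECs and 0.657 in control ECs. Corepressor subunit Rcor1 (CoREST), which acts at neuronal genes, did not pass the test (log2 fold change 0.27 ± 0.19 (SE), adjusted p = 0.25). Germline genes, silent outside the gonads, stayed low, with 12 of 18 below the filter. Rhox5 had 261, 179, 264 and 149 normalized counts after MS-275, against 35.6, 43.7 and 47.3 in control and Sycp3 rose by 1.59, neither called with close pairs averaged (adjusted p = 0.099 and 0.1). Sycp3 lies under Chpt1 on the other strand over 13668 bases, so its reads may be those of Chpt1, which averaged 2349 in MS-275 ECs and 755 in control ECs.

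The metabolic lists differed in their share of calls. In the cholesterol synthesis pathway 1 of 20 genes, Dhcr7, was higher (1429, 1721, 1581 and 1566 normalized counts after MS-275, against 772, 755 and 260.3 in control) and 0 were lower in limma. The count of lower genes was also 0 at an unadjusted p under 0.05, by edgeR and by DESeq2. In glycolysis 5 of 16 were higher (4 with close pairs averaged), 31.25% beside 32.1% of all genes. In limma 0 were lower, as by edgeR and by DESeq2, and 1 was lower without control replicate 3. Hk2 (hexokinase 2) had 3825, 1110.4, 3376 and 981 normalized counts after MS-275, against 129, 134 and 108 in control, with replicates 1 and 3 above replicates 2 and 4 and all 4 above control ECs. Pfkp and Gpi1 rose by 1.80 and 0.84, and Ldha did not pass the test (log2 fold change −0.46 ± 0.64 (SE), adjusted p = 0.56). Of 24 oxidative phosphorylation genes 7 were higher and 4 lower (2 and 2 with close pairs averaged), none by more than 1.30 on the log2 scale, the value of Ndufv1. These are 29.2% and 16.7% of the list, beside 32.1% and 25.5% of all genes. The count of higher genes was 4 without MS-275 replicate 2, and that of lower genes was 2 without MS-275 replicate 4. Lysosomal genes counted 8 higher and 7 lower of 23 (4 and 1 with close pairs averaged), shares near those of all genes. Hexa, a hexosaminidase subunit, fell (log2 fold change −1.12 ± 0.15 (SE), adjusted p = 9.1e-05). The 8 genes above a mean of 5000 in both groups with the smallest change had log2 fold changes of −0.0039 to 0.0049, and they include Tnpo1, a nuclear import receptor, with 7406, 6522, 7568 and 6961 normalized counts after MS-275, against 7385, 6509 and 7427 in control, and Capza1, an actin capping protein, with 6324, 5617, 6071 and 5726 normalized counts after MS-275, against 6176, 5897 and 5661 in control.

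Some of the most abundant transcripts of the cells changed, here chosen after their values were seen. Fth1, the ferritin heavy chain, had 828164, 330673, 809017 and 307167 normalized counts after MS-275, against 110386, 107232 and 83997 in control (log2 fold change 2.36 ± 0.42 (SE), adjusted p = 0.00067) and became the most abundant gene of the MS-275 libraries. Ftl1, the light chain, rose by 1.28, although reads of its pseudogenes may have been assigned to it. Hsp90aa1, the inducible HSP90, had 156312, 322431, 254674 and 299533 normalized counts after MS-275, against 11332, 9241 and 21645 in control (log2 fold change 4.24 ± 0.32 (SE), adjusted p = 2.6e-06), while the constitutive Hsp90ab1 had 48028, 47841, 43459 and 47502 normalized counts after MS-275, against 85632, 87573 and 88041 in control (log2 fold change −0.90 ± 0.11 (SE), adjusted p = 4.3e-05). Prdx1, a peroxidase, rose by 2.08. The polyadenylated histone gene Hist1h1c had 1149, 796, 1214 and 513 normalized counts after MS-275, against 147, 179 and 61.1 in control. Hist1h2bc had 548, 719, 604 and 701 normalized counts after MS-275, against 81.5, 97.6 and 52.3 in control, above all control libraries in both cases. The call of Hist1h1c was lost with close pairs averaged (adjusted p = 0.057).

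MS-275 ECs were also compared with the 2 libraries of adult ECs treated with Wnt3a, which were cultured alike but without the inhibitor. After MS-275, 3541 genes were higher (25.6%) and 2893 lower (21%) than with Wnt3a. Both comparisons use the same MS-275 libraries, so they are not independent and are given side by side. Cldn1 averaged 167 normalized counts after MS-275, against 8.34 and 0 in the Wnt3a libraries (log2 difference 5.73, adjusted p = 0.00024). Axin2 averaged 108 after MS-275, against 5.56 and 7.16 with Wnt3a (log2 difference 3.04, adjusted p = 0.026). Both genes were higher in every MS-275 library than in either Wnt3a library. Wnt7a averaged 57.5 after MS-275, against 30.6 and 0 with Wnt3a, where 1 library had reads, and the difference did not pass the test (2.92, adjusted p = 0.067). Cldn5 averaged 1575 after MS-275, against 7832 and 7963 with Wnt3a (log2 difference −2.50, adjusted p = 0.015). Pecam1 and Cdh5 averaged 3002 and 5389 after MS-275, against 55591 and 63113 with Wnt3a, with log2 differences of −4.35 and −3.75 (adjusted p = 1.8e-05 and 9.0e-05).

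The close pairs of MS-275 libraries also differed from each other. The first principal component of all 12 libraries, each centred on its group, held 50.4% of the variance. It set MS-275 replicates 1 and 3 and control replicates 1 and 2 on one side. MS-275 replicates 2 and 4 and control replicate 3 lay on the other. The 2 Wnt3a libraries also lay on opposite sides, but centring a group of 2 fixes this in advance. These sides were drawn from the values, and the labels give no batch or litter that names these sides. Computed within each side, 11075 genes (80.2%) had the same sign, 1260 were more than 4-fold higher on both sides and 758 more than 4-fold lower on both. Opposite changes of more than 2-fold were found as well, with 100 genes higher on the side of MS-275 replicates 1 and 3 and lower on the other, and 20 genes the reverse. Timp2, an inhibitor of metalloproteases, had 130573, 8116, 84660.2 and 7247 normalized counts after MS-275, against 32574, 34597 and 30869 in control. Col8a1, a short-chain collagen, had 585, 749, 367 and 905 normalized counts after MS-275, against 19.08, 14.2 and 4019 in control, both chosen after their values were seen. The MS-275 libraries of Timp2 and the control libraries of Col8a1 lay far apart within their group, and neither gene passed the test. Without control replicate 3, Col8a1 was called higher (log2 fold change 5.14, adjusted p = 0.00011). Cldn1, Cldn5, Pecam1, Fth1 and Axin2 changed in the same direction on both sides.

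**Figure D5:**
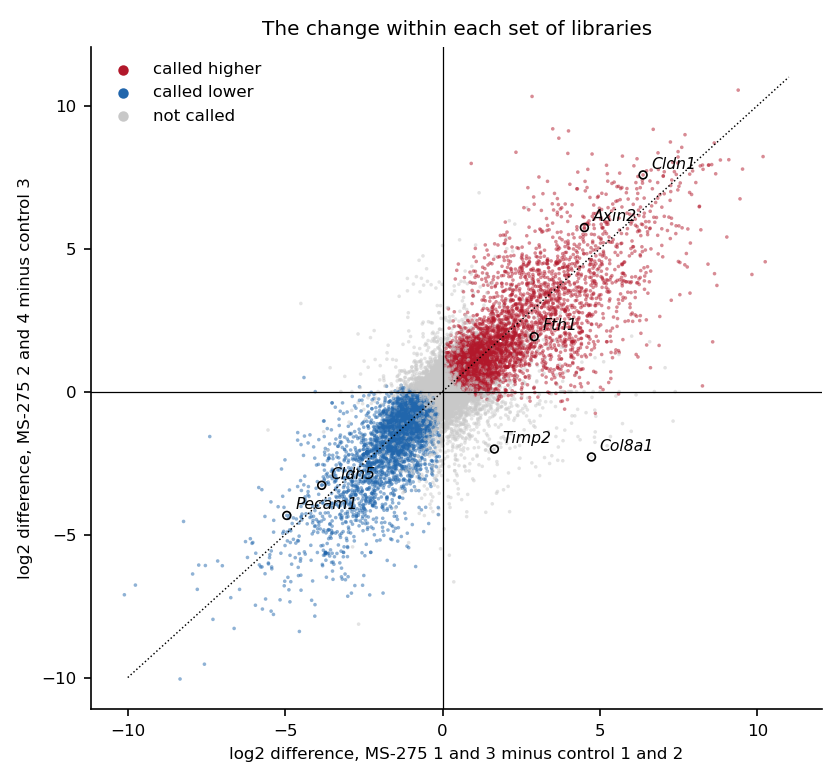
Log2 difference between MS-275 and control libraries on each side of the first principal component, 1 point a gene for 13809 genes, with MS-275 replicates 1 and 3 minus control replicates 1 and 2 on the horizontal axis and MS-275 replicates 2 and 4 minus control replicate 3 on the vertical axis. Red points were called higher, blue lower and grey not called, and the dotted line marks equal changes. Named genes other than Timp2 and Col8a1 lie in the lower left or upper right, while Timp2 and Col8a1 lie in the lower right.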

How the data were processed

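MS-275, Wnt3a, E13.5 and adult control libraries were sequenced by the authors from mRNA as paired-end reads on a NextSeq 550, aligned with STAR to mm10 and counted on GENCODE protein-coding genes. The submitters' processing notes also name FastQC, cutadapt, featureCounts and DESeq2. Tool versions were not given in the sources used here, nor was the use of strand in counting. The deposited values are a signal scale, normalized counts that the authors made by dividing reads by DESeq2 size factors. Whole reads were recovered from 100% of the values within 0.01 reads. Of 21638 entries, 26 with names turned into dates (0.21% to 0.281% of reads) and 1 with a missing value were left out, and 0 other columns of values were present.

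Log2(normalized count + 1) was fitted with limma 3.58.1 (R 4.3.3, trend and robust options) over all 12 libraries in 4 groups, for genes at 10 or more in at least 2 of the 7 MS-275 and control libraries, with Benjamini-Hochberg adjustment and a threshold of 0.05. The 3 reads used as the floor and the counting intervals cover counting error only. edgeR 4.0.16 and DESeq2 1.42.0 on the recovered reads were alternatives, beside other scalings, pseudocounts, filters, blocks and libraries left out. The fits were also run on simulated data with known changes. There limma called 2 of 67 genes changed 1.5-fold, 12 of 67 changed 2-fold and 45 of 66 changed 4-fold. It made 1 false call among 13279 unchanged genes. The simulation changed far fewer genes than were called here, so these shares are not those of the data. It also drew each library independently, so it cannot give the rate of false calls for libraries that form close pairs. A gene that did not pass the test may still have changed.

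The groups compared and the gene lists were chosen with earlier results of these data known. Named genes are those the study discusses, the 12 largest increases and 12 largest decreases, 8 genes without a control read, 8 abundant genes with the smallest change, and, for each list, preset members and the 3 members with the smallest p. Further members of the lists were named after their values were seen, to show members that moved the other way or did not pass the test, and some genes that the rule names are not reported here. Gene positions are from GENCODE M21, which named 21411 of the 21611 genes, and promoters are from RefSeq. Replicate numbers did not pair the libraries: same-numbered MS-275 and control libraries deviated from their group means with correlations across genes of 0.32, −0.29 and −0.35.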

Additional observations from a re-analysis of the deposited data

Results flagged for a closer look

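For 12 of 252 genes named above, 1 of the 4 MS-275 libraries lay apart from the other 3, by more of the group's whole range than Dixon's 95% criterion allows. Chance alone gives about 1 in 20 groups, and 12 of 252 is near that share, so the genes below are listed as descriptions only. Cdh5 had 10931.5 normalized counts in its highest MS-275 library, and 2808 to 4164 in the others. Nos3 had 2801 in the highest, and 984 to 1283 in the others. Cldn1 had 97.2 in its lowest MS-275 library, and 182 to 199 in the others. All 3 deviated in MS-275 replicate 1, and no MS-275 library of these genes came within the range of control libraries.

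Cdkn1c had 1275.6 normalized counts in its highest MS-275 library, and 738 to 779 in the others. Kat2a had 913 in the highest, and 743 to 758 in the others. The hemoglobin genes moved together, with Hba-a1 at 371 against 240 to 252 and Hba-a2 at 355 against 231 to 243 in the other MS-275 libraries. Ftl1 had 209680 in the highest, and 169423 to 175395 in the others. Hsp90ab1 had 43459 in its lowest MS-275 library, and 47502 to 48028 in the others. Notch3 had 161 in the highest, and 142 to 145 in the others. Among low genes, Wnt7b had 53.03 in the highest, and 17.8 to 22.2 in the others, and Hoxc13 had 53.5 in the highest, and 17.7 to 20.5 in the others.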

How the results depend on the processing

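Averaging the close pairs of libraries to 1 value each moved the counts most, to 2159 genes higher and 1799 lower, and a further threshold of 2-fold left 2350 genes lower. All other alternatives kept both counts within 1.5 times those reported, among them edgeR (4079 higher and 3702 lower), DESeq2 (4578 and 3746), other scalings, pseudocounts and filters. Leaving out 1 library gave 3651 to 4712 genes higher and 2961 to 3711 lower against control, and 2603 to 3993 higher and 2123 to 3238 lower against Wnt3a, where the settings that leave out a Wnt3a library were added after seeing the data. Replicate numbers did not pair the libraries, and with the replicate number as a block 3899 genes were higher and 3075 lower. With MS-275 replicates 1 and 3 alone, H1f0 was called higher (log2 fold change 1.02, adjusted p = 0.0044 by limma), as was Timp2 (1.69, adjusted p = 0.016), both below 0 with all libraries, and the cause was not tested. Of 211 named genes that passed the test, 202 stayed called with each library left out in turn and 176 with close pairs averaged. For MS-275 against Wnt3a the planned fit on 7 libraries holds no Wnt3a library, and a fit on MS-275, Wnt3a and control libraries, added after seeing the data, called 3130 higher and 2567 lower. Small counts limit the low genes: the floor of 3 reads a library bounds every fold against control libraries without a read.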
